A study of Homo sapiens with 6 samples.

Results

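The 43 genes described here encode the centromere, the kinetochore and the spindle assembly checkpoint. They were taken by name: a gene was a member when its symbol in the deposited count table was on a list of 43 symbols, and all 43 were found among the 17534 genes of the table. The members were placed in classes by role, with 16 inner kinetochore genes, 15 outer kinetochore genes, 7 checkpoint genes, 3 genes for the loading of the centromeric histone CENP-A, and 2 genes that carry a CENP name without being stable kinetochore subunits. RNA sequencing had been done on NCI-H1703 cells, an established human line that the labels assign to squamous carcinoma of the lung. The 3 Sh-PPM1G libraries came from cells with a short hairpin RNA (shRNA) against PPM1G, a nuclear serine/threonine phosphatase of the PP2C family, and the 3 Sh-NC libraries came from the control cells. The genotype label of the control is Sh-NC, while the series title and design text call these cells wild-type. The number of hairpins, their sequence, whether the knockdown cells were a clone or a pool, and the culture behind each library were not stated in the labels. Both groups were grown to near confluence before harvest, per the series' design text.

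The kinetochore is the protein layer that ties a chromosome to the microtubules of the mitotic spindle. It is built on nucleosomes that hold CENP-A in place of histone H3. The inner layer, the constitutive centromere-associated network, sits on that chromatin throughout the cell cycle, whereas the outer layer, made of the Knl1, Mis12 and Ndc80 complexes, binds microtubules during mitosis. Checkpoint proteins gather on kinetochores that lack microtubules and hold back anaphase. Many of these genes are transcribed mainly in late S phase, G2 and mitosis, so their messenger RNA is known as a feature of dividing cells.

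Library totals ranged from 31337553 to 35838246 counts in the Sh-PPM1G libraries and from 35456562 to 35716901 counts in the Sh-NC libraries. PPM1G itself stood at 182, 194 and 188 CPM (counts scaled to the effective size of the library) in the Sh-PPM1G libraries and at 333, 308 and 324 CPM in the Sh-NC libraries, a log2 fold change of −0.77 ± 0.03 (SE; adjusted p = 3.3e-20, edgeR). Of 6 squamous markers 5 were in the table, and their summed level was 11.1 to 12.1 CPM in Sh-PPM1G and 23.0 to 26.3 CPM in Sh-NC libraries. Most of that sum came from SOX2, with 9.99, 10.7 and 11.2 CPM in Sh-PPM1G and 21.8, 24.5 and 21.9 CPM in Sh-NC libraries. TP63 had at most 1.75 CPM in a library. KRT6A, KRT14 and DSG3 had at most 2 counts in a library, and KRT5 was the marker not in the table. Most of these markers thus do not follow the squamous label. Of 3 adenocarcinoma markers, NKX2-1 had 115 to 128 CPM in Sh-PPM1G and 106 to 121 CPM in Sh-NC libraries and did not pass the test. NAPSA rose, with 22.3, 21.6 and 21.6 CPM in Sh-PPM1G and 2.1, 2.42 and 1.97 CPM in Sh-NC libraries (log2 fold change 3.33 ± 0.11), and SFTPB had at most 3 counts in a library. Leukocyte markers summed to 551 to 583 CPM in Sh-PPM1G and 1240 to 1300 CPM in Sh-NC libraries, nearly all of it from CD68, while the pan-leukocyte gene PTPRC had at most 5 counts in a library. Endothelial markers summed to 3.18 to 4.21 CPM in Sh-PPM1G and 5.02 to 7.02 CPM in Sh-NC libraries, with PECAM1 lower (log2 fold change −2.30 ± 0.20), VWF higher (2.29 ± 0.28) and CDH5 at no more than 3 counts in a library. The part of any of these in the results was not tested.

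Nearly the whole kinetochore gene set was lower in the Sh-PPM1G libraries. By edgeR's quasi-likelihood test with an adjusted p under 0.05 over all genes tested, 42 of the 43 members fell and 0 rose, against a background of 41.3% of 13060 tested genes that fell and 41.5% that rose. The exception was ZW10. At least 2-fold falls were found for 34 members, where 12.4% of tested genes fell that far, and at least 4-fold falls for 26 members, where the background was 3.70%. A fall of at least 8-fold was found for 9 members, against 1.32% of tested genes. The libraries of the groups did not overlap, with Sh-PPM1G lower, for 42 members and for 41.8% of tested genes. All 43 members passed the filter on low counts, and none of them had fewer than 15 counts in a library.

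The median log2 fold change over the members was −2.41, beside a median of 0.01 over all genes tested. By class it was −2.94 for the outer kinetochore, −2.83 for CENPA loading, −2.41 for the checkpoint and −2.04 for the inner kinetochore, and differences between classes were not tested. The inner, outer and checkpoint classes each held members that moved by less than 2-fold beside members that fell by more than 4-fold. Summed over the members, the Sh-PPM1G libraries held 778, 784 and 776 CPM and the Sh-NC libraries 2946, 2912 and 2842 CPM. RNA came from whole cultures, so fewer cells in mitosis and less of these RNAs per cell cannot be told apart. All 8 genes of a list that marks G2 and mitosis fell by at least 4-fold, where 3.7% of tested genes fell that far. Log2 fold changes in this list ran from −3.86 to −2.29, with a median of −3. The largest falls in it were those of the proliferation antigen gene MKI67 (−3.86 ± 0.05 SE), the mitotic kinase gene CDK1 (−3.44 ± 0.05), the cyclin gene CCNA2 (−3.29 ± 0.07) and the spindle kinase gene AURKA (−3.23 ± 0.05). The part of a change in dividing cells in the members' falls was not tested.

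**Figure D1:**
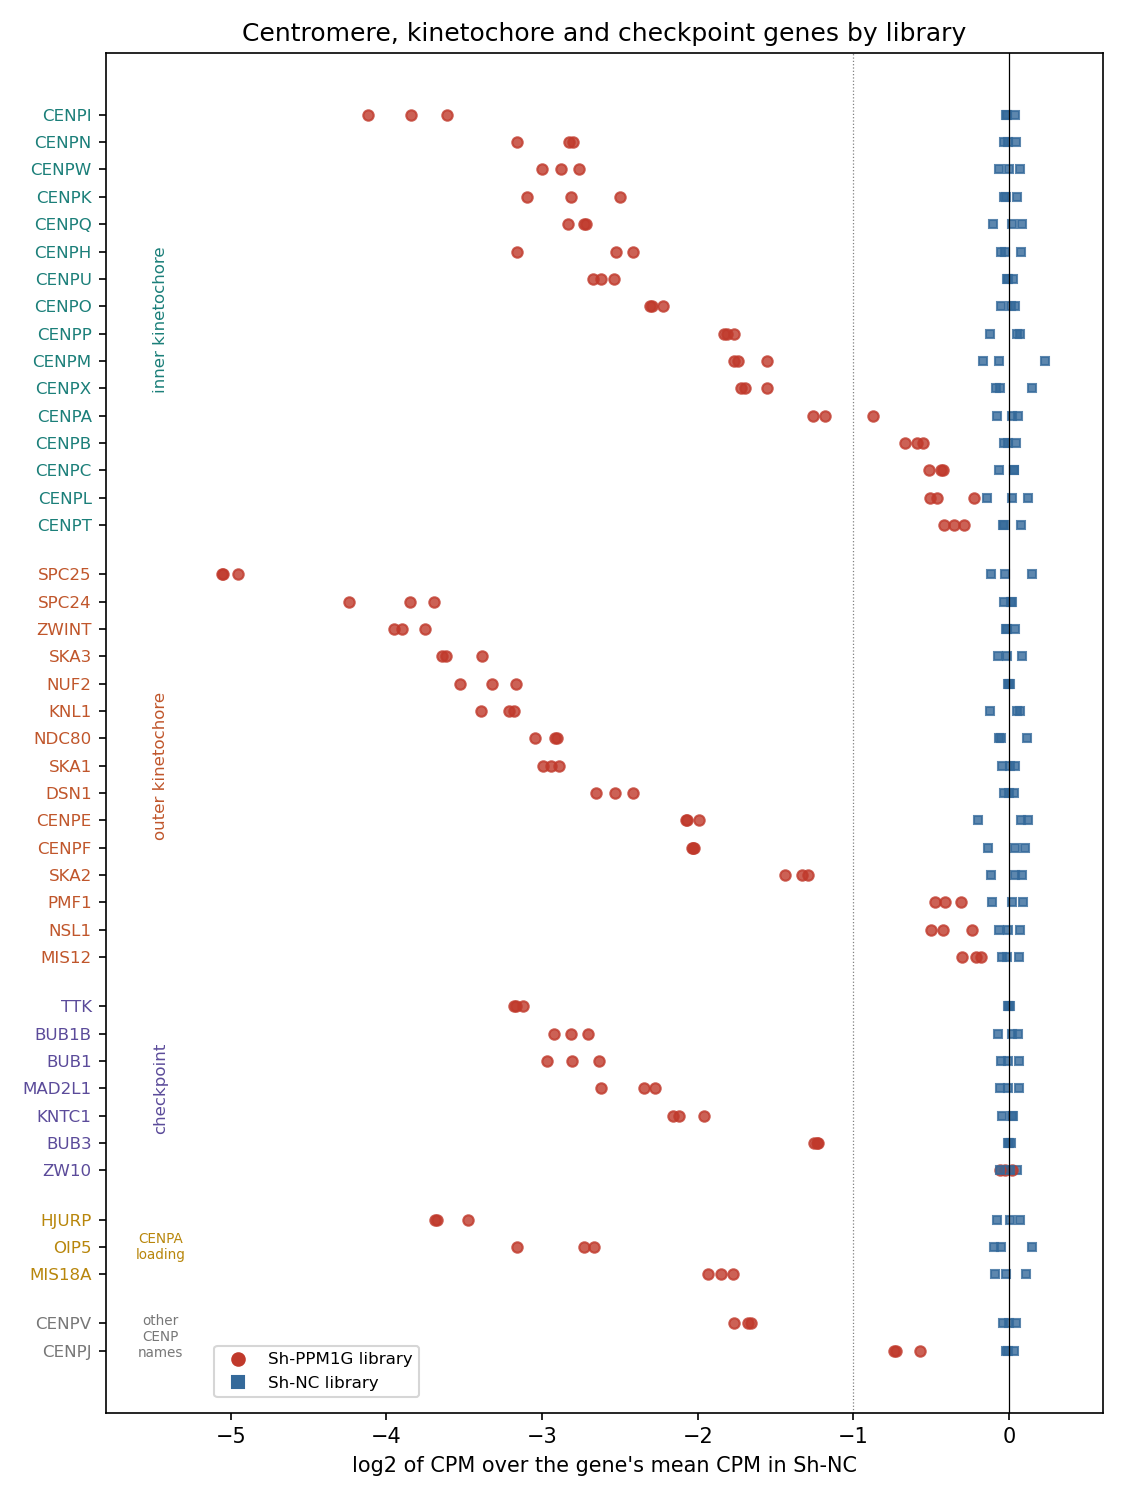
Each row is a member gene and each symbol a library, placed by the log2 of its CPM over the gene's mean CPM in Sh-NC, with Sh-PPM1G as circles, Sh-NC as squares and a dotted line at a 2-fold fall. The Sh-PPM1G circles lie left of all Sh-NC squares in every row but that of ZW10.

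**Figure D2:**
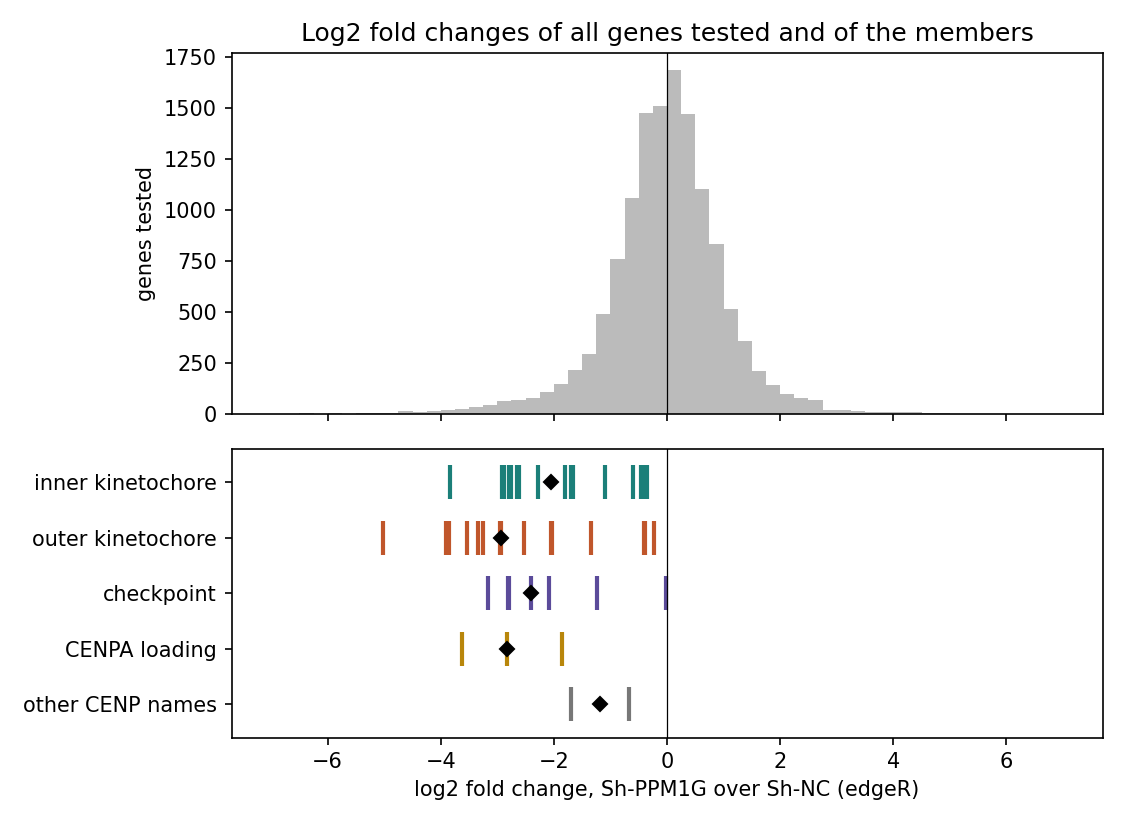
The upper panel counts all 13060 tested genes by log2 fold change, Sh-PPM1G over Sh-NC. In the lower panel each tick is a member gene and each diamond the median of its class, and the ticks spread from −5.02 for SPC25 to −0.02 for ZW10.

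Promoter sequence is the first feature that the choice by name did not use. A cell-cycle homology region (CHR) is a short element through which the DREAM and MuvB protein complexes are known to hold back and then switch on genes of late cell cycle. Windows from 250 bases before to 50 bases after the annotated RefSeq start were at hand for 35 of the 43 members, on build GRCh38.p14, and were searched on both strands. The letters TTTGAA or TTCGAA, the core of a CHR, were within 50 bases of the start in 15 of those 35 members (42.9%). The same was true of 5.02% of the 10751 tested genes with a window, and of 22.1% of the 390 tested genes with a window that fell by at least 4-fold. Among the members, the match was near the start in 14 of 22 that fell by at least 4-fold, in 1 of 5 that fell by 2-fold to 4-fold (CENPA) and in 0 of 8 with smaller changes. The 22 include CENPI and the 8 include CENPJ, whose only listed windows start well inside the gene and not at its first start. The distance of 50 bases was chosen after the match positions had been seen. Anywhere in the window, these letters were found in 51.4% of members and 15.8% of tested genes.

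The CCAAT box, which the factor NF-Y binds, was found in the windows of 21 of 35 members, in 43.6% of those of tested genes and in 58.7% of those of tested genes that fell by at least 4-fold. Strict E2F letters (TTTCCCGC, TTTGGCGC, TTTCGCGC or TTTGCCGC) were found in 4 members, or 11.4%, in 6.59% of tested genes and in 12.8% of those that fell by at least 4-fold. For both elements the members' share was close to that of all genes with such falls. Both were searched on either strand, and matches to different elements were counted separately, also where letters could overlap. The windows of 7 members follow, from 250 bases before to 30 bases after the start, 5′ to 3′ in the direction of the gene, with matches to any of the 3 elements in capitals. They were picked to set 4 steep falls with a CHR match at the start (SPC25, NDC80, BUB1 and CENPN) beside a steep fall with no match (DSN1) and beside genes that moved little (MIS12, the first of its listed windows, and ZW10).
SPC25 (chr2:168890401-168890680, minus strand): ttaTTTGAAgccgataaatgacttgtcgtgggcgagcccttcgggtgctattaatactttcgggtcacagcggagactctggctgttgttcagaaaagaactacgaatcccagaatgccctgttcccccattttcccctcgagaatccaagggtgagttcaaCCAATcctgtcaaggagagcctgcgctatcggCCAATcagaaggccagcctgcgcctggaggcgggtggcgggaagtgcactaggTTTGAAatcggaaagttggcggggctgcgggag
NDC80 (chr18:2571307-2571586, plus strand): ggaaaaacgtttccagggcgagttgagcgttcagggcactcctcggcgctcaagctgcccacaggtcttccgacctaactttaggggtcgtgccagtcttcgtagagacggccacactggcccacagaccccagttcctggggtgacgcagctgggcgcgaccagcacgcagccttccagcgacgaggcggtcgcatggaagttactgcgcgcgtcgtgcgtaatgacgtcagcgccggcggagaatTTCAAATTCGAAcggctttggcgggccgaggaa
BUB1 (chr2:110678034-110678313, minus strand): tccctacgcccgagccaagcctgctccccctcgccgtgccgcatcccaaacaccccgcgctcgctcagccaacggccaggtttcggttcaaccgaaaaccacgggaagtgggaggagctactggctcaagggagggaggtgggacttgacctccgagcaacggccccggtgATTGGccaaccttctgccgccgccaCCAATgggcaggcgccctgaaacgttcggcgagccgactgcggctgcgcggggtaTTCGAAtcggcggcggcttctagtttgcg
CENPN (chr16:81006964-81007243, plus strand): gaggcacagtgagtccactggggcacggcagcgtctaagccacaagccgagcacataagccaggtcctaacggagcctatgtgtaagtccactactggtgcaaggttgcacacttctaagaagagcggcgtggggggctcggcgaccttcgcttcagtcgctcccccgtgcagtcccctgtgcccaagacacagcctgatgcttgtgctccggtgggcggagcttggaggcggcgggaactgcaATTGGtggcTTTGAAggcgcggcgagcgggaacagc
DSN1 (chr20:36773734-36774013, minus strand): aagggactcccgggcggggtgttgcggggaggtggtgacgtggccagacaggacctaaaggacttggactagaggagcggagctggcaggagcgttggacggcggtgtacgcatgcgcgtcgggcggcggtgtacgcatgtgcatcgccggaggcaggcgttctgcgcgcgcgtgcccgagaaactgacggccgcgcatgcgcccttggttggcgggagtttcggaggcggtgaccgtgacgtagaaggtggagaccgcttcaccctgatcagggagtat
MIS12 (chr17:5486124-5486403, plus strand): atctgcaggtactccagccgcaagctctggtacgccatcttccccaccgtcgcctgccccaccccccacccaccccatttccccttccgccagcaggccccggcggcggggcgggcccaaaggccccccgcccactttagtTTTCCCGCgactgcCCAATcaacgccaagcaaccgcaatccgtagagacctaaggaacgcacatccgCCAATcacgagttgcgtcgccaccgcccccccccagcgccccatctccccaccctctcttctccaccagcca
ZW10 (chr11:113773663-113773942, minus strand): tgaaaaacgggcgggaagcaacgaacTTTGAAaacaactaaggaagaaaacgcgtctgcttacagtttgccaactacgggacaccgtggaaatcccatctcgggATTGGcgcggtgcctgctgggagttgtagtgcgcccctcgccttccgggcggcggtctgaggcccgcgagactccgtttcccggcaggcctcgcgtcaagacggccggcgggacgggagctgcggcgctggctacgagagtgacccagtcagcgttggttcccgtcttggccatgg

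In SPC25 the letters TTTGAA began 3 bases before the start, with CCAAT boxes at −88 and −56, and a further CHR match lay at −247, near the far end of the window. In NDC80 a match on the minus strand began 3 bases before the start, and TTCGAA, which reads the same on both strands, began at base 4. BUB1 and CENPN carried theirs at bases 2 and 4, counted from 1 at the start. DSN1 held none of the searched letters and still fell by more than 4-fold, as did CENPE, whose window also held none. The listed windows of CENPI and CENPJ, and a further window of CENPP, start more than 1000 bases inside the gene, so they do not show the sequence at its first start. ZW10 had a CHR match, but at −224, and MIS12 had an E2F match and CCAAT boxes with no CHR match. A match is a description of the sequence and not a measured binding site.

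**Figure D3:**
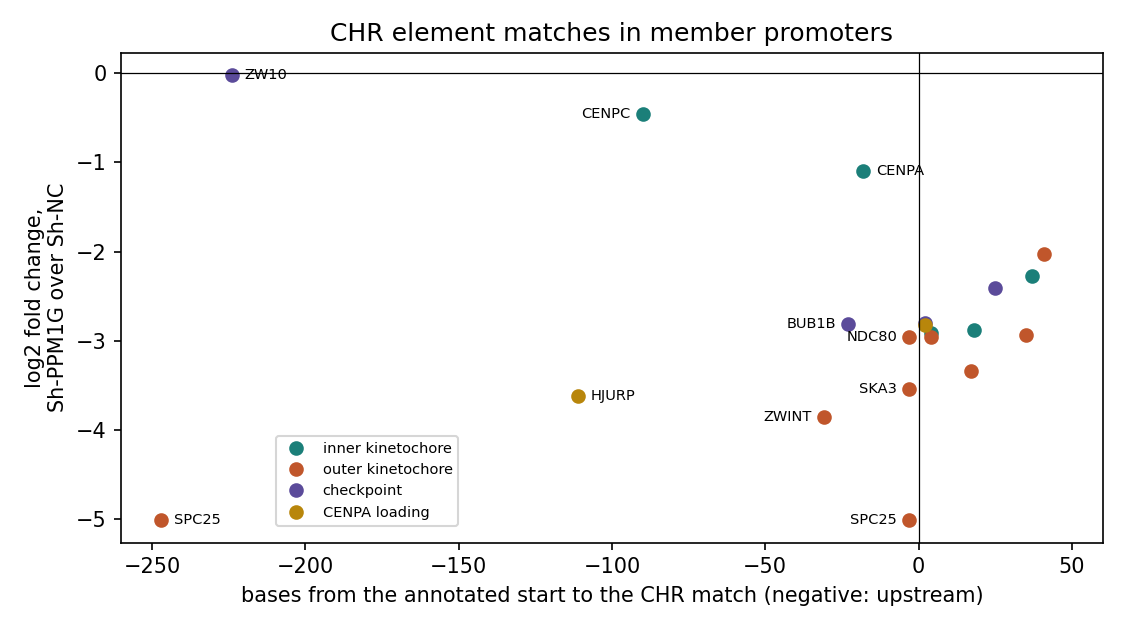
Each point is a CHR core match in a member's promoter window, by its distance in bases from the annotated start on the horizontal axis and the gene's log2 fold change on the vertical axis, coloured by class. Of the ZWINT windows the first listed is drawn. The matches within 50 bases of the start belong to genes with log2 fold changes of −5.02 to −1.09.

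The outer kinetochore was led by the Ndc80 complex, the rod-shaped coupler that grips the microtubule. SPC25, which with SPC24 forms the end of the rod that docks on the inner layers, had 0.464, 0.432 and 0.431 CPM in the Sh-PPM1G libraries and 15.9, 13.2 and 14.1 CPM in the Sh-NC libraries. Its log2 fold change was −5.02 ± 0.16 (SE; adjusted p = 1.1e-23, edgeR), with a fall deeper than in all but 0.107% of tested genes. These levels rest on 15, 16 and 16 counts in the Sh-PPM1G libraries, and the gene's locus overlaps NOSTRIN. Without a strand setting, reads in exons that overlap between these genes could not be told apart. Whether their exons overlap was not examined. SPC24 had 2.87, 3.78 and 4.2 CPM in Sh-PPM1G and 53.2, 54.9 and 55.3 CPM in Sh-NC libraries (log2 fold change −3.90 ± 0.08; adjusted p = 3.5e-28). The microtubule-binding pair fell too, NUF2 by 3.34 ± 0.08 and NDC80 by 2.96 ± 0.10 on the log2 scale. All 4 subunits fell by at least 4-fold, and 3 of them by at least 8-fold, beside 3.7% and 1.32% of all genes tested.

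The genes of the Mis12 complex, which links the Ndc80 complex to CENP-C and CENP-T, fell by unequal amounts. DSN1, its subunit phosphorylated by Aurora B, had 15.2, 16.6 and 18.0 CPM in Sh-PPM1G and 95.8, 98.2 and 93.8 CPM in Sh-NC libraries, a log2 fold change of −2.53 ± 0.05 (adjusted p = 1.1e-28, edgeR). The other 3 subunits passed the test with small falls. MIS12 had 30.5, 33.3 and 32.6 CPM in Sh-PPM1G and 39.4, 36.5 and 37.3 CPM in Sh-NC libraries (log2 fold change −0.23 ± 0.06; adjusted p = 0.00033). NSL1 (−0.39 ± 0.07) and PMF1 (−0.40 ± 0.08) moved about as little, less than 2-fold. PMF1 shares its locus with the readthrough gene PMF1-BGLAP and MIS12 overlaps DERL2, so their counts are uncertain to that extent.

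ZWINT, a partner of KNL1 that helps to recruit the checkpoint complex RZZ, was the member with the highest level in the Sh-NC libraries on the length-scaled FPKM scale. It had 17.8, 19.7 and 17.2 CPM in Sh-PPM1G and 273, 262 and 263 CPM in Sh-NC libraries, a log2 fold change of −3.86 ± 0.04 and the smallest adjusted p of the members (2e-35, edgeR). KNL1, the scaffold on which BUB1 and BUB3 assemble, had 11.1, 10.8 and 9.56 CPM in Sh-PPM1G and 104, 106 and 92.0 CPM in Sh-NC libraries (−3.26 ± 0.06). In both genes the libraries of the groups were far apart and the spread within each group was small.

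The Ska complex, which keeps kinetochores on the ends of shortening microtubules, also showed unequal falls. SKA3 had 2.26, 2.30 and 2.69 CPM in Sh-PPM1G and 29.8, 26.8 and 27.9 CPM in Sh-NC libraries (log2 fold change −3.54 ± 0.10). SKA1 fell by 2.94 ± 0.09. SKA2 had 34.6, 38.2 and 37.3 CPM in Sh-PPM1G and 99.2, 96.0 and 86.3 CPM in Sh-NC libraries, a smaller fall of 1.35 ± 0.05 on the log2 scale. SKA2 hosts the microRNA genes MIR301A and MIR454 and has a pseudogene, which may take part of its reads. The corona proteins CENPE, a kinesin that moves chromosomes to the spindle equator, and CENPF had log2 fold changes of −2.05 ± 0.07 and −2.03 ± 0.05.

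In the inner kinetochore, 16 of 16 genes fell and 12 of them by at least 2-fold, beside 41.3% and 12.4% of all genes tested. The genes of the centromere chromatin itself, CENPA, CENPB and CENPC, had log2 fold changes of −1.09 to −0.46, beside the class median of −2.04. CENPA, the centromeric histone H3 variant, had 5.22, 6.48 and 4.95 CPM in Sh-PPM1G and 11.3, 12.3 and 12 CPM in Sh-NC libraries. Its log2 fold change was −1.09 ± 0.11 (adjusted p = 7.8e-11, edgeR). With scaling by library totals alone it was −0.99, under the 2-fold limit. CENPB, which binds a repeated DNA box in alpha satellite, fell by 0.60 ± 0.05. CENPC, the platform that joins CENP-A nucleosomes to the Mis12 complex, had 19.6, 20.9 and 20.7 CPM in Sh-PPM1G and 26.8, 28.6 and 28.7 CPM in Sh-NC libraries, a log2 fold change of −0.46 ± 0.07.

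The 4 genes of the CENP-HIKM module fell by at least 2-fold each, as did 12.4% of all genes tested. CENPI had 2.35, 2.84 and 3.34 CPM in Sh-PPM1G and 40.4, 40.1 and 41.8 CPM in Sh-NC libraries (log2 fold change −3.83 ± 0.09; adjusted p = 3.3e-27, edgeR), the steepest fall of the inner layer. Log2 fold changes were −2.79 ± 0.10 for CENPK, −2.66 ± 0.12 for CENPH and −1.69 ± 0.10 for CENPM. CENPH varied within the knockdown group, with 3.18, 4.94 and 5.33 CPM in Sh-PPM1G libraries, against 28.0, 30.1 and 27.4 CPM in Sh-NC libraries. In the CENP-OPQU module, which binds the CENP-HIKM and CENP-LN subunits, log2 fold changes were −2.76 ± 0.12 for CENPQ, −2.61 ± 0.07 for CENPU, −2.28 ± 0.04 for CENPO and −1.81 ± 0.06 for CENPP. The CENPP locus overlaps 5 protein-coding genes and that of CENPU overlaps PRIMPOL.

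Partners within the remaining inner modules differed in fall size. CENPN, which reads the CENP-A nucleosome, had 7.02, 7.13 and 5.57 CPM in Sh-PPM1G and 48.6, 51.3 and 49.6 CPM in Sh-NC libraries (log2 fold change −2.92 ± 0.08). Its partner CENPL had 9.15, 9.43 and 11.1 CPM in Sh-PPM1G and 13.2, 14.2 and 11.8 CPM in Sh-NC libraries (−0.40 ± 0.10; adjusted p = 0.00037, edgeR), with a narrow gap between the groups. In the histone-fold module that binds DNA, CENPW fell by 2.88 ± 0.09 and CENPX by 1.66 ± 0.08. CENPT, which partners CENPW and reaches out to the Ndc80 complex, had 42.5, 40.5 and 38.8 CPM in Sh-PPM1G and 50.6, 50.5 and 54.6 CPM in Sh-NC libraries, a log2 fold change of −0.36 ± 0.05. CENPT overlaps NUTF2 and THAP11.

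The loading factors fell more than CENPA. HJURP, the chaperone that deposits CENP-A at centromeres after mitosis, had 9.43, 8.16 and 8.21 CPM in Sh-PPM1G and 106, 99.5 and 110 CPM in Sh-NC libraries (log2 fold change −3.62 ± 0.06; adjusted p = 2.1e-31, edgeR). OIP5 and MIS18A, the subunits of the Mis18 complex that license the site for HJURP, fell by 2.83 ± 0.16 and 1.85 ± 0.09. OIP5 was low in both groups, with 0.958, 1.35 and 1.29 CPM in Sh-PPM1G and 8.02, 9.47 and 8.27 CPM in Sh-NC libraries, and it overlaps the antisense RNA gene OIP5-AS1. On the FPKM scale, the level of HJURP was 0.794, 0.554 and 0.730 of that of CENPA within the Sh-PPM1G libraries and 4.13, 3.55 and 4.04 times that of CENPA within the Sh-NC libraries. This ratio was chosen after the values had been seen and was not tested.

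Checkpoint genes fell in 6 of 7 cases, and each of the 6 fell by at least 2-fold. The shares over all genes tested were 41.3% and 12.4%. TTK, the kinase that starts the checkpoint by phosphorylating KNL1, had 13.9, 14.3 and 13.7 CPM in Sh-PPM1G and 125, 124 and 125 CPM in Sh-NC libraries (log2 fold change −3.16 ± 0.05; adjusted p = 1.9e-32, edgeR). The kinase gene BUB1 fell by 2.80 ± 0.06, and BUB1B, which encodes the BUBR1 subunit of the mitotic checkpoint complex, by 2.81 ± 0.06. MAD2L1, whose protein changes shape to bind CDC20, fell by 2.41 ± 0.08. BUB3, the adaptor shared by BUB1 and BUBR1, had 132, 134 and 135 CPM in Sh-PPM1G and 317, 314 and 315 CPM in Sh-NC libraries, a log2 fold change of −1.24 ± 0.03. BUB1, BUB3 and MAD2L1 have annotated pseudogenes, and BUB1B overlaps the readthrough gene BUB1B-PAK6.

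The RZZ complex, named for ROD, ZW10 and Zwilch, recruits dynein and the MAD1 and MAD2 proteins to kinetochores. ZW10 had 59.4, 61.5 and 58.3 CPM in Sh-PPM1G and 62.9, 60.9 and 58.1 CPM in Sh-NC libraries, and these ranges overlap. Its log2 fold change was −0.02 ± 0.05 (SE; adjusted p = 0.65, edgeR), and the sign turned to 0.08 with scaling by library totals alone. ZW10 is also known to act in membrane traffic between the Golgi and the endoplasmic reticulum in interphase. KNTC1, which encodes ROD, had 32.1, 35.8 and 31.3 CPM in Sh-PPM1G and 135, 141 and 142 CPM in Sh-NC libraries (−2.08 ± 0.05). ZWILCH, which is not among the 43, fell by 2.22 ± 0.07.

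Both genes with a CENP name and a role elsewhere fell as well. CENPJ, a scaffold of centriole assembly, had 23.4, 20.8 and 21.1 CPM in Sh-PPM1G and 35.5, 34.3 and 34.7 CPM in Sh-NC libraries (log2 fold change −0.68 ± 0.06). CENPV, a protein of centromere chromatin and of the spindle midzone, fell by 1.70 ± 0.08.

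Levels between genes were compared on the FPKM scale, which divides by gene length and by the plain library total. All 43 members averaged more than 1 FPKM in Sh-NC libraries, from 1.92 for NSL1 to 120 for ZWINT. In Sh-PPM1G libraries the range ran from 0.270 for SPC25 to 21.4 for ZW10, and SPC25, CENPI, SKA3 and CENPK were under 1 FPKM. Levels above 10 FPKM were held by 8 members in Sh-PPM1G and by 27 members in Sh-NC libraries. ZW10 was the highest of the 43 in Sh-PPM1G and in place 16 in Sh-NC libraries, with 21.4 ± 0.60 and 20.3 ± 0.81 FPKM (SD, n = 3 each). ZWINT was in place 9 in Sh-PPM1G and 1 in Sh-NC libraries, with 8.81 ± 0.64 and 120 ± 2.5 FPKM (SD, n = 3 each).

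Because subunits of a complex fell by different amounts, their order changed in several complexes. In the Mis12 complex, DSN1 was at 0.555, 0.554 and 0.616 of the FPKM of MIS12 in Sh-PPM1G libraries and at 2.72, 3.02 and 2.81 times that of MIS12 in Sh-NC libraries. CENPN was at 0.927, 0.916 and 0.608 of CENPL in Sh-PPM1G and at 4.47, 4.39 and 5.10 times CENPL in Sh-NC libraries. Both pairs changed order in every library. CENPW stood at 0.164, 0.159 and 0.196 of CENPT in Sh-PPM1G libraries and at 1.02, 0.974 and 0.990 of it in Sh-NC libraries. KNTC1 stood at 0.208, 0.225 and 0.206 of ZW10 in Sh-PPM1G libraries and at 0.829, 0.892 and 0.938 of it in Sh-NC libraries. In the Ndc80 complex, where all subunits fell steeply, the highest subunit was 8.52 times the lowest in Sh-PPM1G and 2.63 times in Sh-NC libraries. The pairs were chosen after their values had been seen, so these ratios are descriptions with no test.

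**Figure D4:**
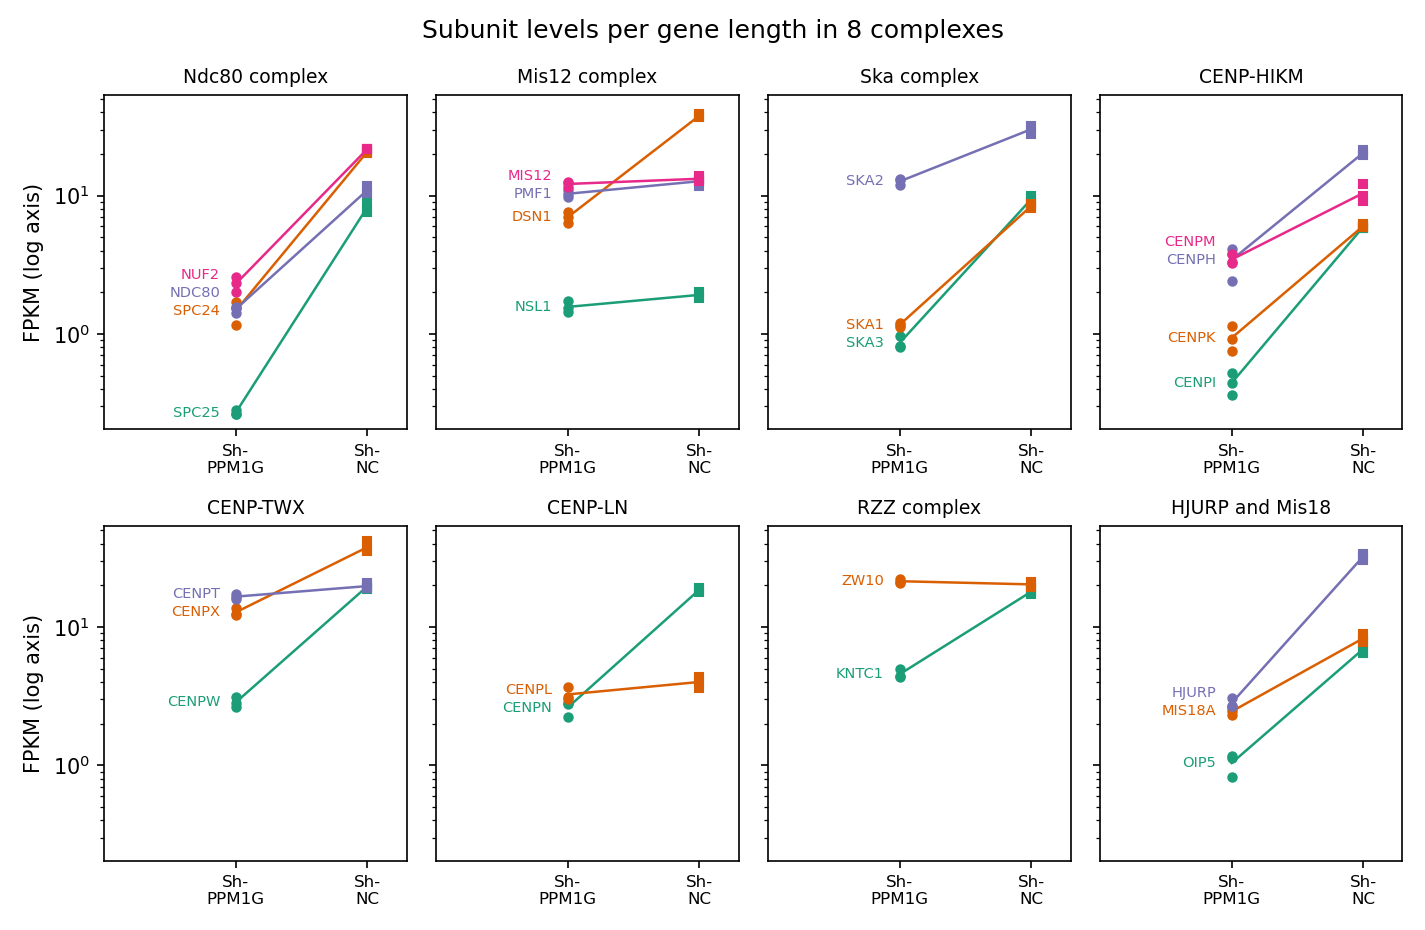
Each panel is a complex and each line a subunit, with FPKM on a log axis, Sh-PPM1G libraries as circles on the left, Sh-NC libraries as squares on the right, and lines that join the group means. Flat lines for MIS12, NSL1, PMF1, CENPT, CENPL and ZW10 stand beside steep ones in the same panels.

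Several members start back to back with a gene on the other strand, within a stretch of at most 1000 bases that both promoters share. Of the 35 members with a listed start, 19 had such a divergent start, and for 14 the neighbour was among the genes tested. Of the 14 neighbours 7 fell, 3 of them by at least 2-fold, 6 rose, and 1 did not pass the test, beside shares of 41.3% lower, 12.4% lower by at least 2-fold and 41.5% higher among all genes tested. The calls of the neighbours in either direction were thus close to the background. The member had the lower log2 fold change in 12 of the 14 pairs, which follows in large part from the falls of the members given above. NDC80 (log2 fold change −2.96 ± 0.10) starts 52 bases from METTL4, a methyltransferase gene (−0.65 ± 0.11). CENPQ (−2.76 ± 0.12) starts 117 bases from MMUT, the mitochondrial methylmalonyl-CoA mutase gene, which rose by 0.40 ± 0.05 (adjusted p = 2.6e-09, edgeR). CENPK starts 128 bases from PPWD1, which had a log2 fold change of 0.04 ± 0.06 and did not pass the test.

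Neighbours that fell by at least 2-fold were NUSAP1 beside OIP5, PRR11 beside SKA2 and LRRC45 beside CENPX. NUSAP1, a microtubule-bundling protein of the mitotic spindle, fell by 2.34 ± 0.05. PRR11 (−2.65 ± 0.04) and LRRC45 (−2.14 ± 0.09) had lower log2 fold changes than SKA2 (−1.35 ± 0.05) and CENPX (−1.66 ± 0.08). Neighbours that rose stood beside members with small falls and with steep ones. Their log2 fold changes were 0.52 ± 0.05 for DERL2 beside MIS12, 1.48 ± 0.07 for TATDN3 beside NSL1 and 0.73 ± 0.03 for CDC25B beside CENPB. Beside members that fell by at least 2-fold they were 1.23 ± 0.19 for RGS5 beside NUF2, 0.97 ± 0.03 for NOL8 beside CENPP and, as given above, that of MMUT beside CENPQ.

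**Figure D5:**
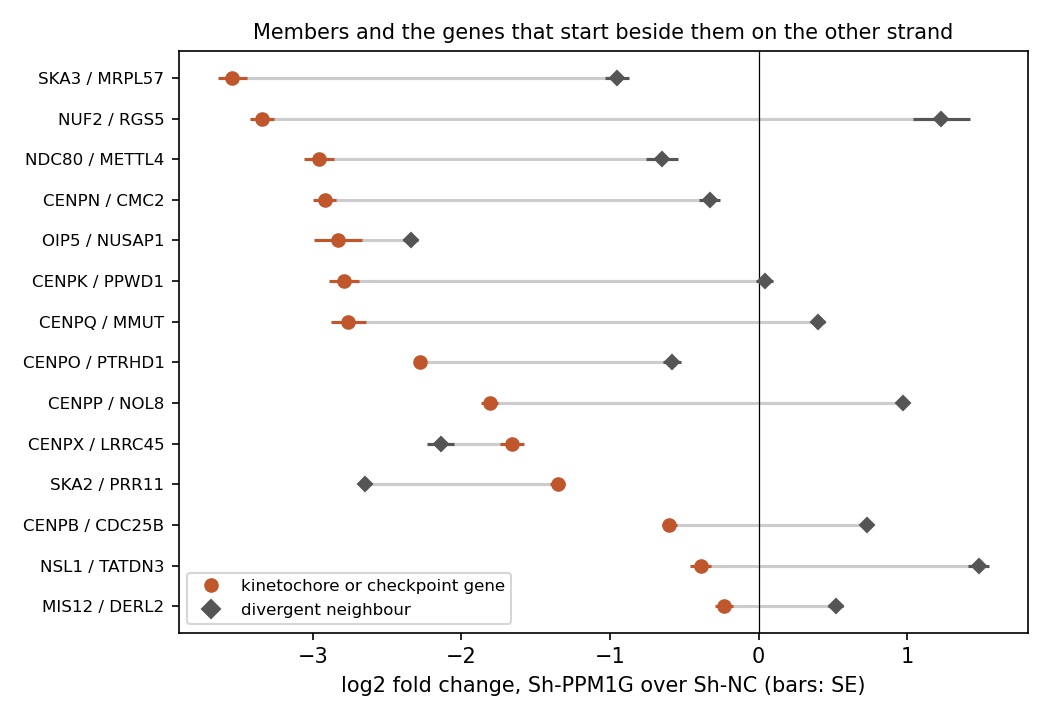
Each row is a member and the gene that starts beside it on the other strand, with the log2 fold change of the member as a circle and that of the neighbour as a diamond, and bars for SE. In 12 of 14 rows the circle lies left of the diamond.

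Other genes of the same machinery were taken as whole lists. Among all genes tested 41.3% fell, 12.4% by at least 2-fold and 3.70% by at least 4-fold, and 41.5% rose. Of 12 further kinetochore and checkpoint genes 10 fell, 6 of them by at least 2-fold, 1 rose and 1 did not pass the test, and the median log2 fold change was −1.32. The largest falls were those of SPAG5 (−3.52 ± 0.05), which encodes astrin, the microtubule depolymerase gene KIF2C (−3.06 ± 0.04), ZWILCH and the checkpoint ATPase gene TRIP13 (−2.02 ± 0.05). MAD2L1BP rose, with 41.2, 42.2 and 41.7 CPM in Sh-PPM1G and 20.1, 18.8 and 22.9 CPM in Sh-NC libraries (log2 fold change 1.02 ± 0.06; adjusted p = 6.3e-16, edgeR). Its protein, p31comet, works with TRIP13 to remove MAD2 from the checkpoint complex, and it is named here after its value was seen. CENPS was counted at 6, 11 and 13 in Sh-PPM1G and 15, 7 and 14 in Sh-NC libraries and did not pass the test.

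In the list of the chromosomal passenger complex and the shugoshins, which correct wrong attachments and guard centromeric cohesion, 8 of 8 genes fell by at least 4-fold, and their median log2 fold change was −3.14. The largest falls were those of AURKB (−4.25 ± 0.06), CDCA8 (−3.55 ± 0.08), SGO1 (−3.42 ± 0.12) and BIRC5 (−3.40 ± 0.05). The anaphase-promoting complex, the ubiquitin ligase that the checkpoint holds back, was a contrast in size. Of its 18 listed subunits and regulators 13 fell, 3 of them by at least 2-fold, 2 rose and 3 did not pass the test, with a median log2 fold change of −0.57. The shares among all genes tested were 41.3% lower, 12.4% lower by at least 2-fold and 41.5% higher. The 3 falls of at least 2-fold were those of the conjugating enzyme genes UBE2C (−2.90 ± 0.05) and UBE2S (−1.10 ± 0.05) and the inhibitor gene FBXO5 (−2.03 ± 0.06). Among the genes of the subunits the largest fall was that of ANAPC15 (−0.92 ± 0.09), less than 2-fold. Medians of lists are descriptions, and differences between them were not tested.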

How the data were processed

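RNA libraries were made from total RNA, per the labels. The authors deposited whole-number counts per gene and library, not normalized, and a table of FPKM, each value being the count over 1 length per gene and over the library total (relative spread between libraries at most 4.19e-07). GRCh38 is the build in the submitters' processing notes, and aligner, counter and strand setting are not stated there.

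The groups were compared over the 13060 genes kept by edgeR's low-count filter (minimum 10), with edgeR 4.0.16 in R 4.3.3: TMM scaling, the robust quasi-likelihood F-test with group as the only term, and Benjamini-Hochberg adjustment at 0.05. SE is the absolute log2 fold change over the square root of F. On simulated counts of 12781 genes the fit recovered 67.3% of the 49 genes with 1.25-fold changes, and 4.97% of calls were false. Alternatives were DESeq2 1.42.0, limma 3.58.1 on log2(FPKM + 1) and log2(FPKM + 0.1), other scalings and filters, a replicate block, and each library left out.

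No 2 libraries of a group agreed within sampling noise (chi-square over degrees of freedom from 2.69 to 6.44). Whether they came from separate cultures is not said, so the p-values cover the spread among these libraries, which may be only technical. All 43 members are named, and of other lists up to 4 genes past the threshold with the largest changes. Members and lists were chosen with earlier results of these data known. Overlaps, divergent starts and promoters came from RefSeq tables (GRCh38.p14), matched by Entrez ID. For 33 of the 35 members with a promoter window, bases just after its start lay in the early part of a GENCODE transcript. That checks the orientation of the window, and the exact start positions were not checked against GENCODE.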

Additional observations from a re-analysis of the deposited data

How the results depend on the processing

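The 42 falls and 0 rises held under all 14 alternatives run. Falls of at least 2-fold numbered 33 with library totals alone and under both FPKM scales, and 34 under the other 11. Library totals alone moved the median log2 fold change of all genes from 0.01 to 0.12, and gave medians of −1.94 for the inner and −2.84 for the outer kinetochore. With limma on log2(FPKM + 1), which understates falls of low genes by construction, medians were −1.86 over the members, −1.67 for the inner kinetochore, −2.25 for the outer kinetochore, −1.77 for the checkpoint and −1.96 for CENPA loading. On log2(FPKM + 0.1) they were −2.24 over the members, −1.91 for the inner and −2.74 for the outer kinetochore. The outer median ranged from −2.96 to −2.89 with each replicate left out in turn. ZW10 alone turned its sign, never past the threshold, to 0.08 with library totals, 0.07 on log2(FPKM + 1) and 0.08 on log2(FPKM + 0.1), and it ranged from −0.05 to 0.01 with replicates left out. For these 4 reversals the cause was not tested beyond the scaling itself. Same-numbered libraries did not deviate together over all genes tested (correlations of −0.02 to 0.01). Such values cannot show whether a number marks a shared culture or batch. With the replicate block 42 members fell, 34 of them by at least 2-fold. Depth limits SPC25, at 15 or 16 counts per Sh-PPM1G library.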

Other observations

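The DREAM and MuvB complexes, which are known to act through the CHR, were looked at as a list of 12 genes. Of the 11 tested 9 fell, 5 of them by at least 2-fold, 1 rose and 1 did not pass edgeR's test, with a median log2 fold change of −0.73. Among all genes tested 41.3% fell, 12.4% by at least 2-fold, and 41.5% rose. The largest falls were those of FOXM1 (−2.58 ± 0.04 SE), the factor that switches on late cell-cycle genes with MuvB, the p107 gene RBL1 (−1.51 ± 0.06), the E2F partner gene TFDP1 (−1.39 ± 0.04) and LIN52 (−1.15 ± 0.08). The repressor gene RBL2, which encodes p130, fell by 0.53 ± 0.05. E2F5 rose, with a log2 fold change of 0.94 ± 0.05 (adjusted p = 1.3e-17, edgeR). MYBL2, which encodes the B-MYB partner of MuvB in dividing cells, was the gene not tested: it had 2, 2 and 1 counts in Sh-PPM1G libraries and 1, 0 and 7 counts in Sh-NC libraries, although FOXM1 had 9426 to 9638 counts in the Sh-NC libraries. RBL2, E2F5 and MYBL2 are named here after their values were seen.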
